A study of Mus musculus with 19 samples.

Results

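The genes described here are 10 mouse genes of fibrogenic and angiogenic growth factor signalling, of 33919 gene identifiers in the table: the ligand genes Tgfb1, Pdgfa, Pdgfb, Pdgfc, Vegfa, Vegfb, Igf1, Hbegf and Hgf, and Met, which encodes the receptor of HGF. They were found by their mouse symbols, each matched 1 identifier, and all 10 passed the filter on low values that left 14875 genes for testing. RNA was sequenced in 19 libraries of Kupffer cells, the macrophages of the liver sinusoids, sorted from livers of female wild-type C57BL/6 mice whose age is not given in the sources used here. Chow_EmKCs (n = 6) were CLEC2+ TIMD4+ cells of mice on chow. MCD_EmKCs (n = 6) were CLEC2+ TIMD4+ cells, and MCD_MoKCs (n = 7) CLEC2+ TIMD4- cells, of mice fed an MCD diet for 4 weeks. MCD stands for methionine- and choline-deficient, a diet used to produce steatohepatitis, and EmKCs and MoKCs are the study's names for Kupffer cells of embryonic and of monocyte origin. Origin was read from the TIMD4 gate and no lineage tracer is named, so the sort gate and the origin cannot be told apart. There was no MoKC group on chow, so the effect of the diet within MoKCs cannot be seen. MCD_MoKCs against Chow_EmKCs differs in both diet and gate.

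As background, TGF-beta 1 is secreted in a latent complex and, once released, drives hepatic stellate cells to make collagen. PDGF dimers make stellate cells divide and migrate, VEGF-A acts on sinusoidal endothelium, and HB-EGF is a membrane-bound ligand of the EGF receptor that proteases shed. IGF-1 and HGF act on many liver cells, and HGF signals through MET, a tyrosine kinase receptor best known on hepatocytes and other epithelia.

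Values are normalised reads, the reads of a gene scaled by the library's own size factor. Libraries held 11642240 to 30983487 reads and 14643 to 16847 detected genes. All 12 Kupffer cell markers examined, among them Clec4f and Timd4, were detected in each of the 19 libraries, but their levels differed. With limma, 10 of the 12 were lower in MCD_MoKCs than in MCD_EmKCs and 10 than in Chow_EmKCs, with none higher. The median log2 fold change of the list was -1.39 and -1.23. In MCD_EmKCs against Chow_EmKCs 3 were lower and 1 was higher. Every MCD_MoKCs library had a lower share of reads in these markers than every EmKC library. Timd4, the gene of the gate, had 400.2 ± 161 normalised reads (SD, n = 7) in MCD_MoKCs against 7491 ± 720.02 (n = 6) in MCD_EmKCs. Some libraries stood apart within their group. MCD_MoKCs 1 to 3 separated from 4 to 7 on the third principal component (38.4 to 86.9 against -75.5 to -25.8), MCD_EmKCs 1 and 2 lay apart on the second (-142 and -70.6 against -30.5 to -13.9), and MCD_MoKCs 2, 5 and 7 had a higher sum of 8 endothelial marker genes than every other library. Columns carry a library number from 17 to 48 whose meaning is not given, and sets of libraries numbered up to 33 and from 37 were also tested apart.

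The genes did not move as a block. In MCD_EmKCs against Chow_EmKCs, Vegfa and Met were higher and the other 8 did not pass the test: 2 of 10 were called, against 4.08% of all genes tested, 2.5% higher and 1.58% lower (limma, Benjamini-Hochberg adjusted p under 0.05 over 14875 genes). The groups overlapped for all 10, while 2.96% of genes tested did not overlap, 1.55% higher and 1.41% lower. In MCD_MoKCs against MCD_EmKCs, which asks how the gated subsets differ on the same diet, Vegfa and Met were higher and Hbegf was lower, 3 of 10 against a background of 10.5% (5.64% higher, 4.9% lower). The groups did not overlap for these 3 genes, as for 4.86% of all genes tested (2.62% higher, 2.25% lower). In MCD_MoKCs against Chow_EmKCs, Tgfb1, Vegfa and Met were higher and Hbegf was lower, 4 of 10 against 16.8% (8.68% higher, 8.08% lower). In that comparison the groups did not overlap for Vegfa and Met, as for 7.97% of all genes tested (4.48% higher, 3.5% lower). The 3 comparisons share samples: each group stands in 2 of them. In sorted bulk samples, a change in the share of cells that express a gene and a change in RNA per cell cannot be told apart.

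**Figure D1:**
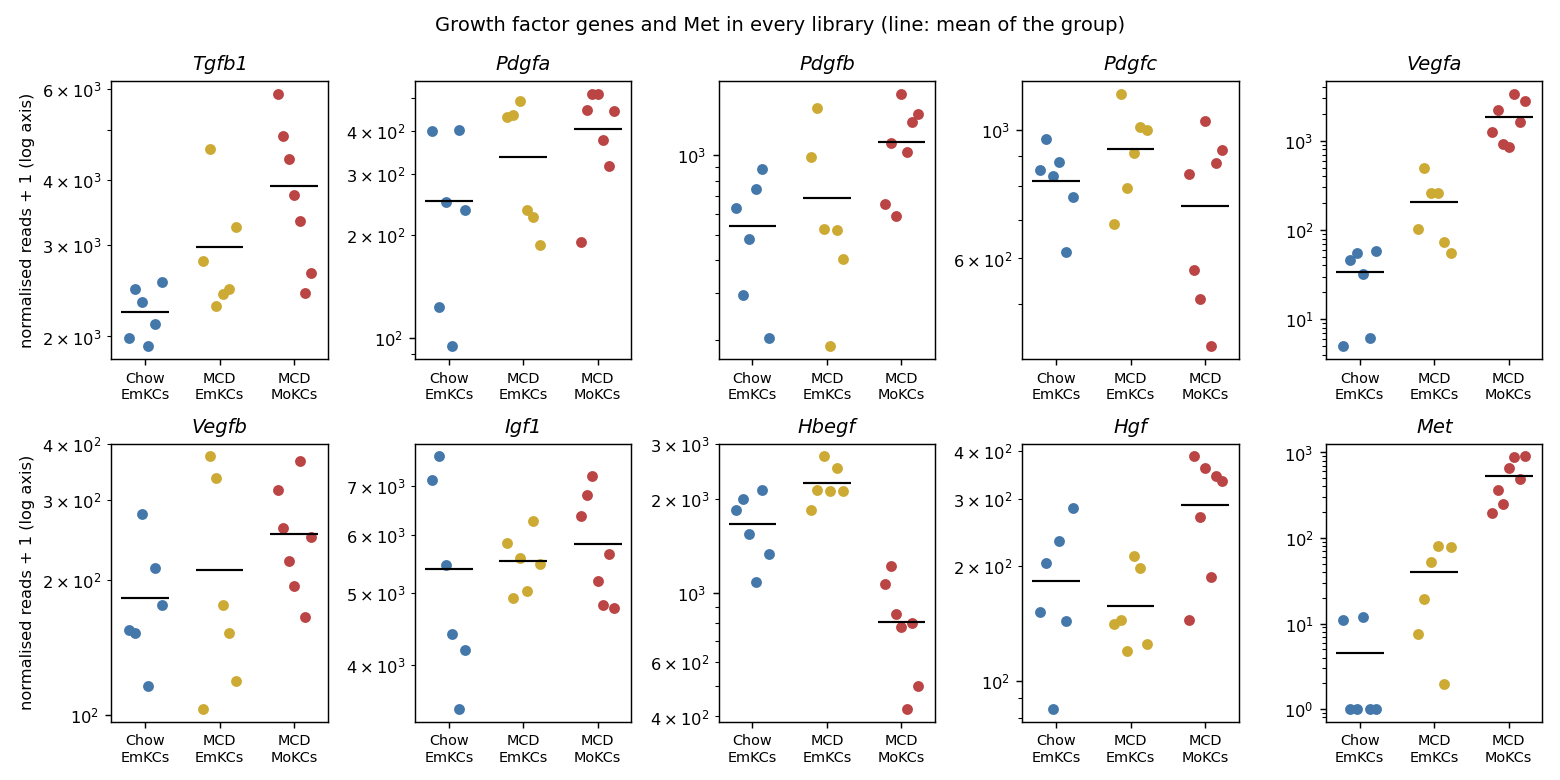
Normalised reads + 1 (log axis) of the 10 genes, 1 point per library and a line at the group mean. Vegfa lies between 849.8 and 3370.04 in MCD_MoKCs, above every library of the other groups, Met follows the same order, Hbegf is lowest in MCD_MoKCs, and Igf1 overlaps in all groups.

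**Figure D2:**
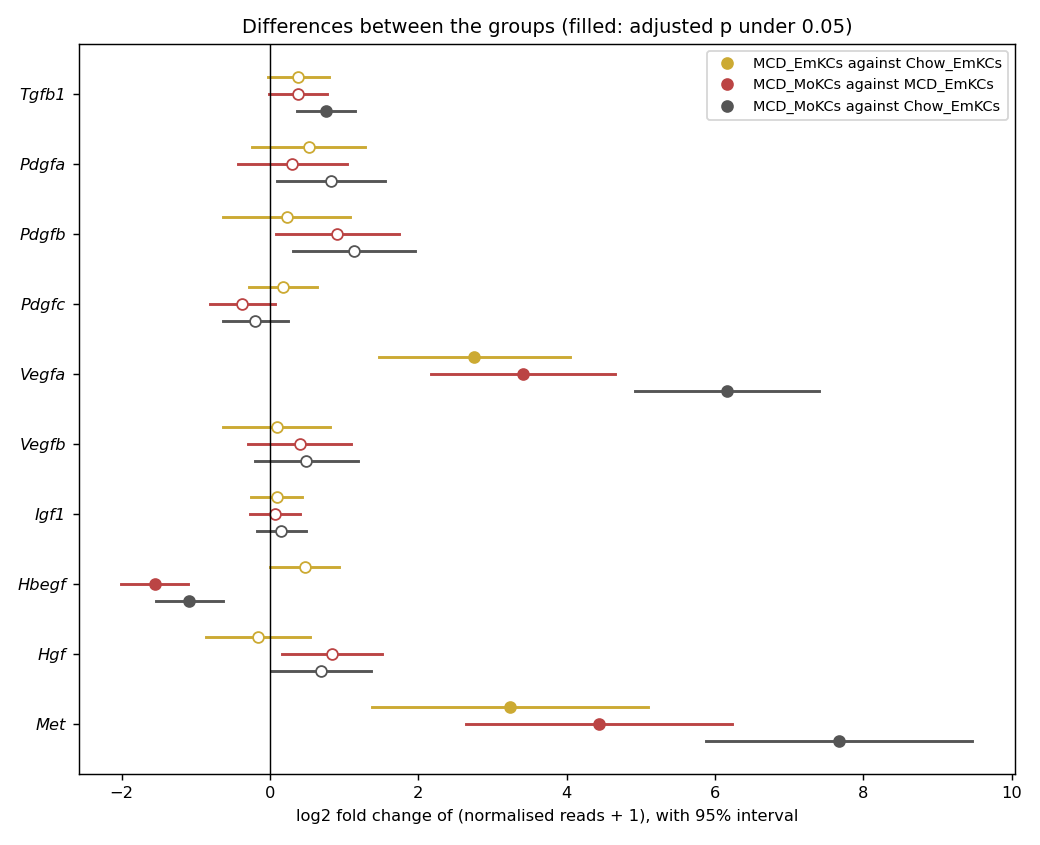
Log2 fold change of (normalised reads + 1) in the 3 comparisons, with 95% intervals from limma, filled where the adjusted p is under 0.05. The intervals of Vegfa and Met lie far above 0, those of Hbegf in MCD_MoKCs against either EmKC group lie below 0, and those of Igf1, Vegfb and Pdgfc include 0.

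Compared per kilobase of annotated exon, the level that allows genes to be set side by side, Igf1 and Tgfb1 led in all 3 groups. In Chow_EmKCs Igf1 had a mean level of 544 normalised reads per kb and Tgfb1 441, followed by Hbegf at 342, Pdgfc at 160.4, Pdgfb at 129.6, Vegfb at 113 and Pdgfa at 80.02. Hgf at 25.3, Vegfa at 7.66 and Met at 0.452 stood at the bottom. In MCD_MoKCs the mean levels per kb were 774 for Tgfb1, 589 for Igf1 and 434 for Vegfa, which had rank 9 in Chow_EmKCs and rank 3 in MCD_MoKCs. Hbegf stood there at 166, between Pdgfb at 269 and Vegfb at 157, and Met at 69.3 was above Hgf at 40.1. Neighbours in this order often overlapped. Within single libraries the ratio of Igf1 to Tgfb1 per kb was above 1 in 4 of 6 Chow_EmKCs, 4 of 6 MCD_EmKCs and 1 of 7 MCD_MoKCs, and the ratio of Pdgfb to Pdgfc was above 1 in 2 of 6, 2 of 6 and 6 of 7. These levels are a description with no test.

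**Figure D3:**
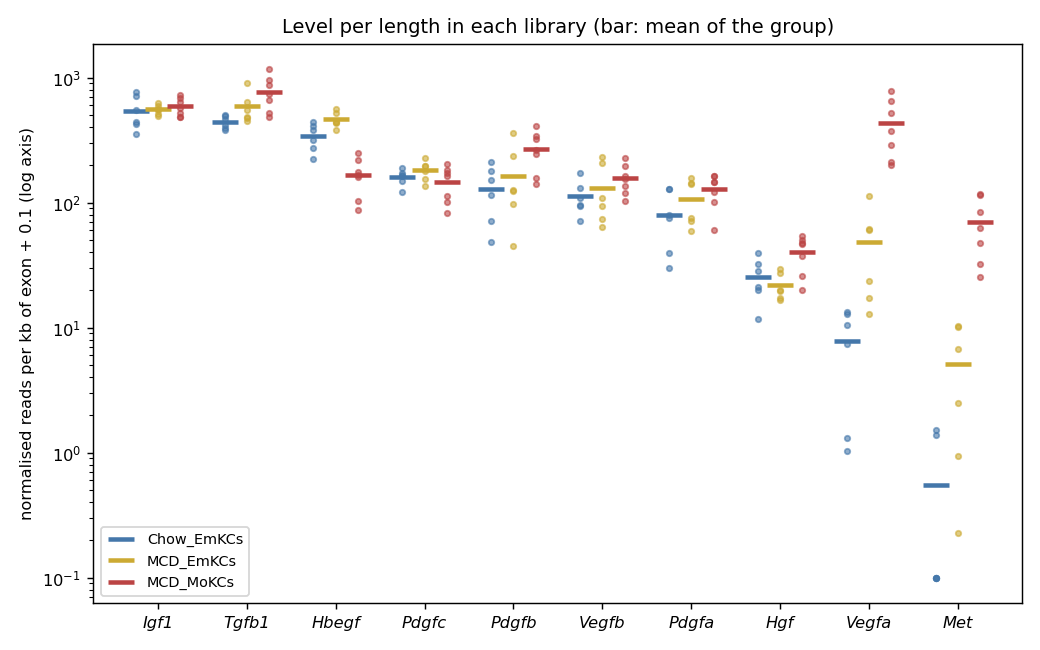
Normalised reads per kb of exon + 0.1 (log axis) for each gene, 1 point per library and a bar at the group mean, ordered by the level in Chow_EmKCs. Vegfa and Met, the lowest genes in Chow_EmKCs, reach mean levels of 434 and 69.3 in MCD_MoKCs.

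Tgfb1 (ENSMUSG00000002603, mm10 chr7:25687002-25705077, + strand), the gene of the TGF-beta 1 precursor, was higher in MCD_MoKCs than in Chow_EmKCs, and MCD_EmKCs lay between. Its lowest, median and highest values were 1913, 2222 and 2543 normalised reads for Chow_EmKCs, 2287, 2632 and 4589 for MCD_EmKCs, and 2422, 3744 and 5876 for MCD_MoKCs. Of the 7 MCD_MoKCs libraries 6 lay above every chow library, while MCD_EmKCs overlapped both. The mean was 2226 ± 261 (SD, n = 6), 2968 ± 867 (n = 6) and 3901 ± 1237 (n = 7). The difference of MCD_MoKCs from Chow_EmKCs was 0.75 ± 0.19 on the log2 scale (SE, limma adjusted p = 0.00602). MCD_EmKCs against Chow_EmKCs gave 0.38 (95% interval -0.03 to 0.79, limma adjusted p = 0.359) and MCD_MoKCs against MCD_EmKCs 0.38 (-0.02 to 0.77, adjusted p = 0.245), which did not pass.

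The called difference of Tgfb1 rested on MCD_MoKCs 1 to 3. These libraries had 4399 to 5876 normalised reads (mean 5051 ± 754, SD, n = 3) and libraries 4 to 7 had 2422 to 3744 (mean 3039.6 ± 611, n = 4), with no overlap. Without libraries 1 to 3 the log2 difference from Chow_EmKCs was 0.44 (limma adjusted p = 0.150), and without 4 to 7 the difference from MCD_EmKCs was 0.80 (adjusted p = 0.0136). Within library numbers up to 33 it was 0.95 against Chow_EmKCs (adjusted p = 0.0157), and within numbers from 37 it was 0.22 (adjusted p = 0.638). MCD_MoKCs 1 to 3 also had a higher mitochondrial share of reads, 0.534 to 0.729% against 0.244 to 0.359% in 4 to 7. In Chow_EmKCs that share was 0.511 to 1.05%. MCD_MoKCs 1 to 3 had fewer reads, 11642240 to 16750655 against 19215122 to 30983487 in 4 to 7. They also had fewer detected genes, 15216 to 15705 against 16274 to 16847. The part of these differences in the result was not tested.

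Among the genes that hold TGF-beta latent or release it, 9 were tested. None passed in MCD_EmKCs against Chow_EmKCs with limma (1 at an unadjusted p under 0.05, 0 with edgeR and 1 with DESeq2), 2 were higher in MCD_MoKCs than in MCD_EmKCs, and 5 were higher in MCD_MoKCs than in Chow_EmKCs, with none lower. The median log2 fold change of the list was 0.37, 1.37 and 1.00 in the 3 comparisons, beside -0.04, 0.02 and -0.01 over all genes. Thbs1, whose product thrombospondin 1 can release TGF-beta from its latent form, averaged 995 ± 642 normalised reads in MCD_MoKCs, against 58.1 ± 87.9 in Chow_EmKCs and 63.04 ± 74.9 in MCD_EmKCs (log2 fold change 4.49 against MCD_EmKCs, limma adjusted p = 0.0101). Ltbp3, a latent TGF-beta binding protein, averaged 238 ± 107 in MCD_EmKCs and 876 ± 197 in MCD_MoKCs (1.97, limma adjusted p = 8.76e-06). The count of 5 against Chow_EmKCs, which also holds Ltbp4 (1.75, limma adjusted p = 0.0489), was 4 without MCD_MoKCs 1 to 3, 2 without 4 to 7 and 3 without 2, 5 and 7. The count of 2 between the MCD groups was 1 higher and 1 lower without MCD_MoKCs 4 to 7, and 1 without 2, 5 and 7 or without MCD_EmKCs 1 and 2, and Thbs1 lost its call there in all 3 of these fits.

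Receptors, SMADs and targets of TGF-beta gave 0 limma calls of 18 between MCD_EmKCs and Chow_EmKCs (5 at an unadjusted p under 0.05, 1 with edgeR and 3 with DESeq2). There were 3 higher and 1 lower between the MCD groups, and 8 higher and 1 lower between MCD_MoKCs and Chow_EmKCs. The type I receptor gene Tgfbr1 had 871 ± 257, 1439.9 ± 442 and 2051 ± 134 normalised reads in the 3 groups (log2 1.28 for MCD_MoKCs against Chow_EmKCs, limma adjusted p = 3.53e-05), and the type II receptor gene Tgfbr2 had 3677 ± 662, 3480 ± 773 and 3681 ± 754. Tgfbr3, the co-receptor betaglycan, was low, with 12.8 ± 17.4, 64.2 ± 133 and 101 ± 89.9, and was higher in MCD_MoKCs than in Chow_EmKCs (log2 3.69, limma adjusted p = 0.0124), a call lost with edgeR and without MCD_MoKCs 4 to 7 or 2, 5 and 7. Eng, the co-receptor endoglin, was higher in MCD_MoKCs than in MCD_EmKCs by 1.82 (adjusted p = 0.000288) and Tgfbi by 0.51 (adjusted p = 0.00451), while Acvrl1, the receptor ALK1, was lower by 0.82 on the log2 scale (limma log2 fold change -0.82, adjusted p = 0.00367, and 0.0768 without MCD_MoKCs 2, 5 and 7).

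None of the 3 PDGF ligand genes passed the limma test in any comparison, although 3 of their 9 differences had an unadjusted p under 0.05. edgeR called none of them and DESeq2 called 1, Pdgfb in MCD_MoKCs against Chow_EmKCs. Pdgfa (ENSMUSG00000025856, chr5:138976014-138997370, - strand) encodes the A chain and Pdgfb (ENSMUSG00000000489, chr15:79995874-80014977, - strand) the B chain of the classical dimers. Pdgfb had a lowest, median and highest value of 202, 555 and 886 normalised reads for Chow_EmKCs, 188, 520.1 and 1497 for MCD_EmKCs, and 586, 1105 and 1703 for MCD_MoKCs. Of the 7 MCD_MoKCs libraries 5 lay above every chow library and 1 above every MCD_EmKCs library. The log2 difference was 1.13 ± 0.40 (SE) against Chow_EmKCs (limma adjusted p = 0.0550, 95% interval 0.30 to 1.96) and 0.91 ± 0.40 against MCD_EmKCs (adjusted p = 0.167, 0.08 to 1.74).

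Within MCD_EmKCs, the 2 libraries that lay apart held the highest Pdgfb, 982 and 1497 normalised reads against 188 to 522 in the other 4. Without them the difference between the MCD groups was 1.47 on the log2 scale and passed (limma adjusted p = 0.0149), and MCD_EmKCs against Chow_EmKCs turned from 0.22 to -0.34 (adjusted p = 0.789). MCD_EmKCs 1 and 2 also had the fewest detected genes, 14643 and 15063 against 15691 to 16356.

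Pdgfa had medians of 241, 337 and 458 normalised reads and ranges of 93.4 to 401, 186 to 490 and 189 to 514 in Chow_EmKCs, MCD_EmKCs and MCD_MoKCs (0.82 on the log2 scale for MCD_MoKCs against Chow_EmKCs, 95% interval 0.09 to 1.55, limma adjusted p = 0.125). An antisense gene, 6330403L08Rik, covers 813 bases (26.1%) of its exons with a mean value of 83.4 normalised reads. Whether the counting used strand is not given in the sources used here, so reads of the pair may be mixed. Pdgfc (ENSMUSG00000028019, chr3:81036416-81214040, + strand), whose product needs cleavage before it binds its receptor, had medians of 840.2, 954 and 838 and overlapped in all groups. Its antisense partner Gm16000 covers 2.89% of its exons. Its log2 difference between the MCD groups was -0.37 (95% interval -0.81 to 0.07, limma adjusted p = 0.315).

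The receptor genes of these ligands, known from stellate cells and fibroblasts, were low. Pdgfra was at 0 in 3 of 6, 4 of 6 and 4 of 7 libraries and averaged 1.14, 1.24 and 14.4 normalised reads. Pdgfrb averaged 95.4 ± 48.5, 57.4 ± 18.4 and 74.2 ± 77.9. Of 6 other tested genes among PDGF ligands, receptors and activating proteases, 1 was higher in each comparison and 1 was lower in MCD_MoKCs than in Chow_EmKCs. Plat, the plasminogen activator tPA that can cleave PDGF-C, was higher in MCD_EmKCs than in Chow_EmKCs, 50.3 ± 34.7 against 2.097 ± 4.17 (log2 4.27, limma adjusted p = 0.00266). The receptor-like gene Pdgfrl was lower in MCD_MoKCs than in Chow_EmKCs (log2 fold change -3.25, adjusted p = 0.0305), a call lost with edgeR, with DESeq2 and without MCD_MoKCs 1 to 3 or 2, 5 and 7. St14, the protease matriptase, was low, with a mean under 50 normalised reads in both MCD groups. It was higher in MCD_MoKCs than in MCD_EmKCs (log2 3.96, limma adjusted p = 0.0237). It lost the call in each of the 4 fits without a set of libraries that stood apart.

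Vegfa (ENSMUSG00000023951, chr17:46016993-46032369, - strand), the gene of the main endothelial growth factor, had the largest differences of the 10 genes after Met, while its relative Vegfb (ENSMUSG00000024962, chr19:6982473-6987651, - strand), which binds VEGFR1, overlapped in all groups. The bases before their RefSeq starts (build GRCm38.p6) are shown because the pair parts so far in level. Capitals mark matches on either strand to GGGCGG, the letters of Sp1 sites, or to ACGTG or GCGTG, the core of hypoxia response elements.
Vegfa, chr17:46032378-46032627, - strand: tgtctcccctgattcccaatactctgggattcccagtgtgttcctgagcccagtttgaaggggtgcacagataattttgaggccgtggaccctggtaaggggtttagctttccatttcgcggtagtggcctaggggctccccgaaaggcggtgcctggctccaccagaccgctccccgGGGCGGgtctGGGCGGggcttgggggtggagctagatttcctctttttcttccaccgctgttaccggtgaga
Vegfb, chr19:6987652-6987901, - strand: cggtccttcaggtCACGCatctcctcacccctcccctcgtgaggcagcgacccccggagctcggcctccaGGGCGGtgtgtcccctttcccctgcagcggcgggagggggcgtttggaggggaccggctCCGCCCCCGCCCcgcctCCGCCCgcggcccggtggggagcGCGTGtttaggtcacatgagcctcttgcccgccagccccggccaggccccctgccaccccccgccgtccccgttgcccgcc
The Vegfa window holds 2 matches to GGGCGG, the first bases of which lie at -72 and -62 from the start, and no hypoxia match. The Vegfb window holds 4 and 2. A second RefSeq start of Vegfa at position 46025163 has 2 hypoxia matches, at -218 and -211, in the 250 bases before it. Such letters are common: of 32851 promoter windows of this length, 38.6% hold ACGTG or GCGTG and 32.7% hold GGGCGG. A match is a description of letters and not of a bound site.

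Vegfa was low in Chow_EmKCs, with a lowest, median and highest value of 3.96, 37.9 and 57.2 normalised reads (4 to 72 reads a library). In MCD_EmKCs the values were 54.3, 179 and 488, and 5 of 6 libraries lay above every chow library. In MCD_MoKCs they were 849.8, 1611 and 3370.04, above every library of both other groups. The means were 32.8 ± 23.7 (SD, n = 6), 206 ± 166 (n = 6) and 1861 ± 973 (n = 7). Vegfa rose by 2.75 ± 0.62 on the log2 scale in MCD_EmKCs against Chow_EmKCs (SE, limma adjusted p = 0.00986), a 6.27-fold ratio of means. It was higher again by 3.41 ± 0.60 in MCD_MoKCs than in MCD_EmKCs (adjusted p = 0.000328), a 9.05-fold ratio. Fold changes are of (value + 1) and understate the change of low genes.

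The difference of MCD_MoKCs from Chow_EmKCs, 6.16 ± 0.60 (limma adjusted p = 3.69e-08), passed under all 35 alternative settings. Within library numbers up to 33 and from 37, which leave 2 to 5 libraries a group, MCD_EmKCs against Chow_EmKCs gave 3.34 (adjusted p = 0.0733) and 2.17 (adjusted p = 0.200), and within numbers up to 33 the MCD groups differed by 2.66 (adjusted p = 0.0541). Per kb, Vegfa was below Vegfb in each of the 6 Chow_EmKCs (ratio 0.00923 to 0.122) and 6 MCD_EmKCs (0.172 to 0.548) libraries and above it in each of the 7 MCD_MoKCs libraries (1.47 to 4.23).

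Vegfb had medians of 164, 163 and 248 normalised reads, with ranges of 115 to 278, 102 to 375 and 165 to 365. Its difference was 0.09 ± 0.35 in MCD_EmKCs against Chow_EmKCs and 0.40 ± 0.34 between the MCD groups (SE, limma adjusted p = 0.935 and 0.529). The 95% interval of the latter, -0.30 to 1.09, included 0.

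RNA of sinusoidal endothelial marker genes moved with Vegfa inside MCD_MoKCs. Of 12 such markers, 5 were higher and 3 lower in MCD_MoKCs than in MCD_EmKCs. The 5 became 2 without MCD_MoKCs 1 to 3, 3 without 4 to 7, and 1 without 2, 5 and 7 or without MCD_EmKCs 1 and 2, with 3 lower in each of these fits. All 12 markers summed to 9846 to 11546 normalised reads in Chow_EmKCs and 10326 to 11829 in MCD_EmKCs. In MCD_MoKCs 2, 5 and 7 they summed to 12566 to 15985, above every other library, and in the other 4 to 4951 to 7056, below every EmKC library. Over 8 endothelial markers (Kdr, Tek, Clec4g, Oit3, Dnase1l3, Gpr182, Ptprb and Lyve1, that is the list of 12 without Pecam1, Cdh5, Stab2 and Fcgr2b, which carry most of its sum in the EmKC groups, a choice made after the values were seen) the summed level was 6628 to 8573 normalised reads in MCD_MoKCs 2, 5 and 7 and 1626 to 2645 in the other 4. Vegfa was 2235 to 3370.04 in those 3 libraries and 849.8 to 1611 in the other 4. Over these 8 markers MCD_EmKCs had sums of 1272 to 2653, with Vegfa at 54.3 to 488. The pattern inside MCD_MoKCs was not confined to endothelial markers. The 12 hepatocyte markers summed to 1549 to 2002 normalised reads in MCD_MoKCs 2, 5 and 7 and 590 to 1373 in the other 4. In a fit without MCD_MoKCs 2, 5 and 7, a set chosen after the values were seen, the log2 difference of Vegfa between the MCD groups was 2.85 ± 0.71 (SE, limma adjusted p = 0.0144). The 4 MCD_MoKCs libraries left in that fit also held RNA of endothelial and hepatocyte markers. The part of other cells in the Vegfa difference was not tested.

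Of 12 tested genes of VEGF ligands, receptors and HIF regulators, 1 was higher in MCD_EmKCs than in Chow_EmKCs, 1 in MCD_MoKCs than in MCD_EmKCs and 3 in MCD_MoKCs than in Chow_EmKCs, and none was lower. Nrp2, a neuropilin co-receptor, had 68.3 ± 63.8, 735 ± 767 and 1678 ± 650.2 normalised reads (log2 3.98 for MCD_EmKCs against Chow_EmKCs, limma adjusted p = 0.0140, and 0.0541 without MCD_EmKCs 1 and 2). Nrp1 had 1515 ± 411, 1638 ± 317 and 2815 ± 507 (0.78 between the MCD groups, limma adjusted p = 0.00478, and 0.111 without MCD_MoKCs 4 to 7). The receptor genes Kdr and Flt1 had 120.3 ± 89.5, 461 ± 313 and 893 ± 674, and 18.9 ± 17.1, 63.95 ± 72.2 and 140.1 ± 128. Kdr is one of the endothelial markers above and was 1107 to 1872 in MCD_MoKCs 2, 5 and 7. Hif1a, the gene of an oxygen-regulated factor known to act on Vegfa, had 1054 ± 362, 1374 ± 399 and 955 ± 305, and no tested HIF regulator passed with limma. These are RNA values, and the level and activity of HIF protein were not measured here. DESeq2 called 5 genes of the list in MCD_MoKCs against Chow_EmKCs.

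Met (ENSMUSG00000009376, chr6:17463800-17573980, + strand) followed the order of Vegfa at a lower level, and its ligand gene Hgf did not pass. The 93 bases before the annotated gene are shown as the counterpart of the Vegfa window, with the 30 bases around the single AP-1 match (TGANTCA, in capitals) that lies at -54 to -48 from the RefSeq start of Met at position 17463957.
Met, chr6:17463707-17463799, + strand: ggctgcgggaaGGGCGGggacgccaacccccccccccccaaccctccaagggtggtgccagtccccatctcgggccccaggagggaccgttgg
Met AP-1 match, chr6:17463892-17463921, + strand: tgttgcccggcTGAGTCAcgggccgggcag
The AP-1 stretch lies inside the annotated gene. Of the 8 members with a RefSeq promoter window, Met and Igf1 hold an AP-1 match in the 250 bases before the start, as 6.75% of all windows do. In its 250 bases Met also holds 3 hypoxia matches, at -126, -125 and -32, and 3 matches to GGGCGG, at -239, -117 and -20. Counted by gene, a hypoxia match is held by 7 of the 8 members and GGGCGG by 5. These 8 members have 11 windows, since some have several RefSeq starts. Of all windows, 38.6% hold a hypoxia match and 32.7% hold GGGCGG. These shares, like the 6.75% for AP-1, are by window, so the counts by gene cannot be set directly against them. Capitals in the longer Met sequence mark GGGCGG.

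Met was at 0 in 4 of 6 Chow_EmKCs libraries and at 9.90 and 10.9 normalised reads (10 and 13 reads) in the other 2. In MCD_EmKCs the lowest, median and highest values were 0.974, 34.6 and 78.7, and 4 of 6 libraries lay above every chow library. In MCD_MoKCs they were 193, 484 and 899, above all 12 EmKC libraries. Met was higher in MCD_MoKCs than in MCD_EmKCs by 4.44 ± 0.87 on the log2 scale (SE, limma adjusted p = 0.000894), a 13.7-fold ratio of the means 532 ± 289 (SD, n = 7) and 38.7 ± 34.97 (n = 6). Against Chow_EmKCs, with a mean of 3.47 ± 5.39 (n = 6), the log2 difference was 7.68 ± 0.87 (adjusted p = 2.66e-07) and passed under all 35 alternatives. Its size depends on the pseudocount of 1, since most chow libraries are at 0.

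The rise of Met in MCD_EmKCs against Chow_EmKCs was less firm. It was 3.24 ± 0.91 (SE, limma adjusted p = 0.0389) and lost its call under 18 of 35 alternatives, with adjusted p from 0.00714 to 0.295. Among these were leaving out any 1 of Chow_EmKCs 2, 3, 5 or 6, MCD_EmKCs 2, 3, 4 or 6, or MCD_MoKCs 4 or 6. With 1 library left out the adjusted p was at most 0.102. The difference between the MCD groups was 3.61 without MCD_MoKCs 4 to 7 (adjusted p = 0.0657) and 4.84 within library numbers from 37 (adjusted p = 0.142). It was 4.05 without MCD_MoKCs 2, 5 and 7 (adjusted p = 0.0255). Met was lower in MCD_MoKCs 1 to 3 (193 to 367 normalised reads) than in 4 to 7 (484 to 899), with no overlap.

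Because MET is known from hepatocytes and bile duct epithelium, their markers are given beside it. The 12 hepatocyte markers held 0.0289 to 0.0784% of reads in Chow_EmKCs, 0.00366 to 0.0232% in MCD_EmKCs and 0.00321 to 0.0112% in MCD_MoKCs, so that both MCD groups lay below every chow library. Of the 12, 8 were lower in MCD_EmKCs (5 without MCD_EmKCs 1 and 2) and 11 in MCD_MoKCs than in Chow_EmKCs. Between the MCD groups 1 was higher and none lower in MCD_MoKCs with limma. All 8 cholangiocyte markers summed to 57.7 to 372, 9.74 to 701 and 962 to 8942 normalised reads in the 3 groups, so that every MCD_MoKCs library lay above all others. Of 4 tested, only Spp1 was called, higher in MCD_MoKCs than in either EmKC group. The 7 cholangiocyte markers other than Spp1 summed to 38.5 to 319.9 normalised reads in chow, 7.79 to 288 in MCD_EmKCs and 15.5 to 2026 in MCD_MoKCs. In MCD_MoKCs 5 the sum was 2026, with Met at 887, and in MCD_MoKCs 7, where Met was 899, it was 70.7. Cldn4 was at 0 in all 19 libraries. Both libraries were among those with the highest sums of endothelial markers. Without MCD_MoKCs 5 the difference of Met between the MCD groups was 4.28 (limma adjusted p = 0.00289). The part of other cells in the Met difference was not tested.

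Hgf (ENSMUSG00000028864, chr5:16553495-16620152, + strand), the ligand, had a lowest, median and highest value of 83.3, 176 and 283 normalised reads for Chow_EmKCs, 119, 142 and 211 for MCD_EmKCs and 143, 332 and 386 for MCD_MoKCs. Of the 7 MCD_MoKCs libraries 5 lay above every MCD_EmKCs library. The log2 difference between the MCD groups was 0.84 ± 0.33 (SE, 95% interval 0.16 to 1.52, limma adjusted p = 0.109), and DESeq2 on the recovered reads called it (0.89, adjusted p = 0.0395). A same-strand transcript, Gm43489, overlaps 6.74% of Hgf exons. Per kb, Met exceeded Hgf in 5 of 7 MCD_MoKCs libraries and in none of the 12 EmKC libraries. Of 8 tested genes around HGF activation and MET signalling, 1 was higher and 1 lower in MCD_EmKCs than in Chow_EmKCs, 1 and 1 between the MCD groups, and 3 and 2 in MCD_MoKCs against Chow_EmKCs. Plaur, the urokinase receptor, had 549 ± 112, 1844 ± 426 and 6238 ± 853 (log2 1.74 for MCD_EmKCs against Chow_EmKCs and 1.78 between the MCD groups, limma adjusted p = 1.65e-07 and 2.51e-08). Hpn, the protease hepsin, was lower in MCD_MoKCs than in MCD_EmKCs (log2 fold change -2.01, limma adjusted p = 0.000620). Hgfac, the HGF activator gene that hepatocytes make, was lower in MCD_EmKCs than in Chow_EmKCs (-3.94, adjusted p = 0.0235), as 8 of 12 hepatocyte markers were, a call lost with edgeR, with DESeq2 and without MCD_EmKCs 1 and 2. Without MCD_MoKCs 4 to 7 the 3 genes higher against Chow_EmKCs became 1.

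Hbegf (ENSMUSG00000024486, chr18:36504927-36515805, - strand) was the only one of the 10 genes that was lower in MCD_MoKCs in a called comparison. Its lowest, median and highest values were 1085, 1688 and 2138 normalised reads for Chow_EmKCs, 1849, 2134 and 2740 for MCD_EmKCs, and 421, 799 and 1214 for MCD_MoKCs. All 7 MCD_MoKCs libraries lay below all 6 MCD_EmKCs libraries, and 6 of 7 below every chow library. The means were 1655 ± 407 (SD, n = 6), 2248 ± 322 (n = 6) and 803 ± 282 (n = 7). Hbegf was lower in MCD_MoKCs than in MCD_EmKCs (log2 fold change -1.56 ± 0.22, SE, limma adjusted p = 1.34e-05), 0.357 times the mean, and this call held under all 35 alternatives, from -1.89 to -1.11. Within library numbers up to 33 it was -1.44 and within numbers from 37 -1.83. Against Chow_EmKCs it was -1.09 (adjusted p = 0.000674), and -0.64 without MCD_MoKCs 4 to 7 (adjusted p = 0.0594). MCD_EmKCs against Chow_EmKCs gave 0.47 (95% interval 2.72e-05 to 0.94, adjusted p = 0.311).

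Hbegf is known to respond quickly to stress, so genes that respond to cell isolation are given beside it. The 13 such genes held 2.08 to 2.96% of reads in Chow_EmKCs, 3.09 to 3.70% in MCD_EmKCs and 2.37 to 3.47% in MCD_MoKCs, and 8 of them were higher in MCD_EmKCs than in Chow_EmKCs. Between the MCD groups 3 were lower in MCD_MoKCs (Jund, Jun and Dusp1, log2 fold change -0.84, -0.71 and -0.61) and 3 were higher (Egr2, Nr4a1 and Atf3, 1.06, 0.49 and 0.45, limma). These 3 and 3 became 1 and 1 without MCD_MoKCs 1 to 3 or 2, 5 and 7, 3 lower and 1 higher without 4 to 7, and 2 lower and 1 higher without MCD_EmKCs 1 and 2. Their part in the Hbegf difference was not tested. Of 12 tested EGF family genes, 1 was higher in MCD_EmKCs than in Chow_EmKCs, 2 in MCD_MoKCs than in MCD_EmKCs, and 2 higher and 1 lower in MCD_MoKCs than in Chow_EmKCs. Cd9, a tetraspanin known to bind the HB-EGF precursor, had 103 ± 29.1, 879.6 ± 306 and 3115 ± 853 normalised reads in Chow_EmKCs, MCD_EmKCs and MCD_MoKCs. It was higher in MCD_EmKCs than in Chow_EmKCs (log2 3.05, limma adjusted p = 1.02e-08). It was also higher in MCD_MoKCs than in MCD_EmKCs (1.86, limma adjusted p = 7.69e-06). Areg, another EGF receptor ligand, reached only 51.3 ± 49.2 in MCD_MoKCs (3.42 against MCD_EmKCs, limma adjusted p = 0.0453), and the 2 genes higher between the MCD groups became 1 in each of the 4 fits without a set of libraries that stood apart, and with edgeR and DESeq2. Egfr averaged 15.3, 4.02 and 4.03 and did not pass the filter.

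Igf1 (ENSMUSG00000020053, chr10:87858265-87937042, + strand), the insulin-like growth factor that hepatocytes release into the circulation, was abundant and overlapped in all groups. Its lowest, median and highest values were 3479, 4931 and 7671 normalised reads for Chow_EmKCs, 4919, 5526 and 6262 for MCD_EmKCs, and 4773, 5647 and 7221 for MCD_MoKCs. The log2 differences were 0.09 (95% interval -0.26 to 0.44), 0.07 (-0.27 to 0.40) and 0.15 (-0.18 to 0.49) in the 3 comparisons (limma adjusted p = 0.855, 0.862 and 0.597). Its level also differed between library numbers. In Chow_EmKCs, Igf1 was 5462 to 7671 at numbers up to 33 and 3479 to 4399 at numbers from 37, without overlap. Within numbers from 37 all 3 MCD_EmKCs libraries (5035 to 6262) lay above all 3 chow libraries (0.48, limma adjusted p = 0.188), and within numbers up to 33 the difference was -0.30 (adjusted p = 0.574). Within MCD_MoKCs, Igf1 was higher in libraries 1 to 3 (6359.7 to 7221) than in 4 to 7 (4773 to 5647).

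Of 9 tested receptors, binding proteins and adaptors of IGF-1, 3 were higher in MCD_EmKCs than in Chow_EmKCs, 1 in MCD_MoKCs than in MCD_EmKCs, and 4 were higher and 1 lower in MCD_MoKCs than in Chow_EmKCs. Irs2, an adaptor of the insulin and IGF-1 receptors, had 1639 ± 453, 4614 ± 2778 and 6477 ± 1626 normalised reads (log2 1.34 for the first difference, limma adjusted p = 0.00404). Igf2r, which takes up IGF-2 and lysosomal enzymes, had 273 ± 104, 827 ± 289.7 and 1098 ± 197 (1.63, adjusted p = 0.000919, limma). Igfbp7 was higher in MCD_EmKCs than in Chow_EmKCs (1.19, limma adjusted p = 0.0458), a call lost without MCD_MoKCs 1 to 3. It was also higher in MCD_MoKCs than in MCD_EmKCs (1.03, limma adjusted p = 0.0435). That call was lost in each of the 4 fits without a set of libraries that stood apart. Igfbp2 was lower in MCD_MoKCs than in Chow_EmKCs (log2 fold change -4.32, limma adjusted p = 0.00531), as 11 of 12 hepatocyte markers were, and was not called by edgeR or DESeq2. The receptor gene Igf1r was low, with 75.7 ± 68.9, 78.6 ± 37.5 and 113 ± 80.7.

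Of 17 other fibrogenic and angiogenic factors tested, 6 were higher in MCD_EmKCs than in Chow_EmKCs, 7 higher and 1 lower in MCD_MoKCs than in MCD_EmKCs, and 12 higher and 1 lower in MCD_MoKCs than in Chow_EmKCs. The median log2 fold change was 1.22, 1.07 and 2.27. Osm, the cytokine oncostatin M, had 1163 ± 529 normalised reads in MCD_MoKCs against 13.4 ± 14.1 in MCD_EmKCs (log2 7.24, limma adjusted p = 1.83e-06), and Spp1, osteopontin, 2741 ± 2141 against 201 ± 235 (5.59, adjusted p = 0.00660). The single lower gene was Ccn1, a matrix-bound angiogenic protein, which had 675 ± 433, 2367 ± 226 and 227 ± 253 (2.06 and then -3.89, limma adjusted p = 0.0116 and 2.06e-06). Its highest group, like that of Hbegf, was MCD_EmKCs. Ccn2, the connective tissue growth factor, was higher in MCD_EmKCs than in Chow_EmKCs (3.87, limma adjusted p = 0.0264), a call lost with edgeR and without MCD_EmKCs 1 and 2. The first difference of Ccn1 was also lost with edgeR, and that of Spp1 between the MCD groups without MCD_MoKCs 2, 5 and 7. Without MCD_MoKCs 2, 5 and 7 the 7 genes higher between the MCD groups became 4, and edgeR called 3 in MCD_EmKCs against Chow_EmKCs.

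**Figure D4:**
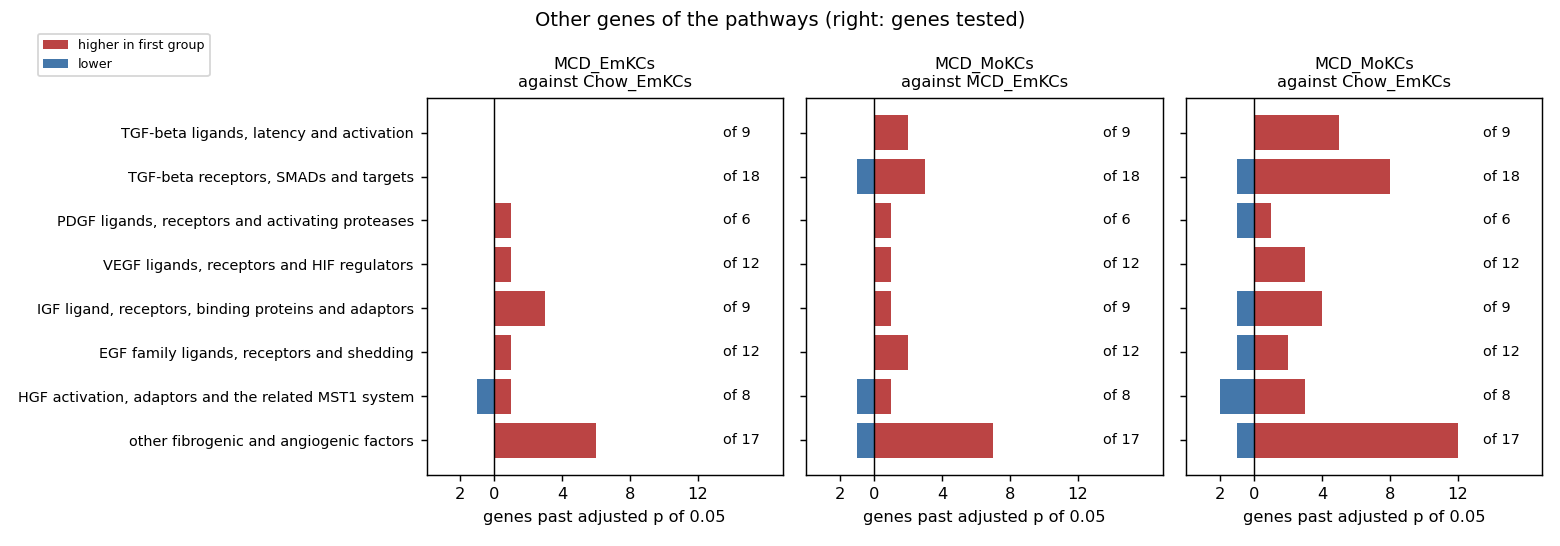
Genes of each pathway list past an adjusted p of 0.05 (limma), to the right where higher and to the left where lower in the first group named, with the number tested at the right. The longest bar is that of the other fibrogenic and angiogenic factors in MCD_MoKCs against Chow_EmKCs, 12 of 17 higher.

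The 2 sets of MCD_MoKCs libraries divided 4 of the 10 genes without overlap, Tgfb1, Igf1 and Hbegf higher in 1 to 3 and Met lower, as 14.6% of all genes tested (7.65% higher, 6.95% lower). Set against library number, Tgfb1 was highest at numbers 17 to 20, while Vegfa in the same 3 libraries (913 to 2235) lay inside the range of the other 4 (849.8 to 3370.04).

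**Figure D5:**
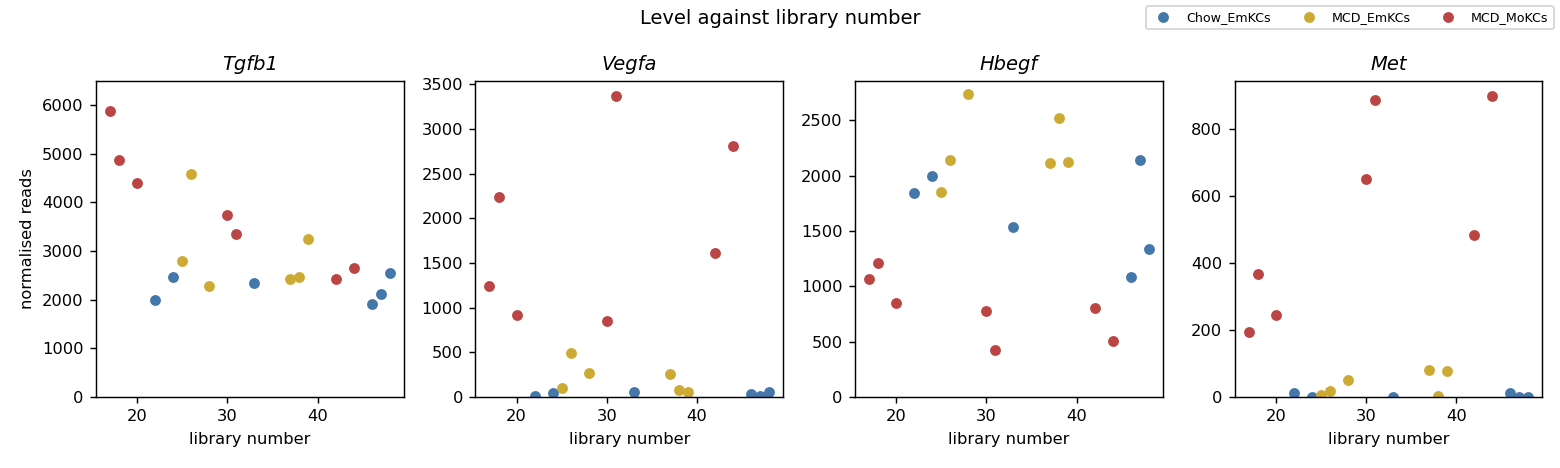
Normalised reads of Tgfb1, Vegfa, Hbegf and Met against the library number in the column names, coloured by group. Within MCD_MoKCs, Tgfb1 and Hbegf are higher and Met is lower at numbers 17 to 20 than at 30 to 44, while Vegfa overlaps.

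Markers of other cells differed between the groups as well. Of 5 tested neutrophil markers, 4 were higher in MCD_MoKCs than in Chow_EmKCs, which became 2 with edgeR or without MCD_MoKCs 1 to 3, and 1 higher and 1 lower without 2, 5 and 7. All 10 listed markers summed to 1887 to 3360 normalised reads in chow, 1950.1 to 2838 in MCD_EmKCs and 1547 to 4790.4 in MCD_MoKCs, which overlap. Without Csf3r they summed to 15.6 to 151 normalised reads in chow, 47.9 to 218 in MCD_EmKCs and 125 to 2367 in MCD_MoKCs, the highest being MCD_MoKCs 2. Platelets are known carriers of PDGF and TGF-beta, and 2 of 3 tested platelet markers were higher in either MCD group than in Chow_EmKCs, 1 of 3 in either with edgeR. The 2 became 1 in MCD_EmKCs without MCD_EmKCs 1 and 2, and in MCD_MoKCs without 4 to 7 or 2, 5 and 7. All 8 listed markers summed to 203 to 766, 913 to 1526 and 1603 to 4621, without overlap of the 3 groups. Without Pf4 they summed to 21.04 to 183, 16.6 to 343 and 30.8 to 532, with Gp1bb at 0 in Chow_EmKCs and Gp6 at 0 in MCD_MoKCs. Of 9 tested stellate cell and fibroblast markers, 1 was higher and 1 lower in MCD_MoKCs than in Chow_EmKCs, the higher one lost without MCD_MoKCs 1 to 3 or 2, 5 and 7. All 12 listed markers summed to 3195 to 5129, 4045 to 6119 and 2388 to 4641. Without Ecm1 they summed to 364 to 675, 624.8 to 959 and 253 to 1373, and Col1a2 was at 0 in Chow_EmKCs. T and NK cell markers held 0.00111 to 0.00206%, 0.000269 to 0.00192% and 0.00266 to 0.00381% of reads, and 4 of 10 were higher in MCD_MoKCs than in MCD_EmKCs, which became 1 with edgeR, with DESeq2, and without MCD_MoKCs 4 to 7, 2, 5 and 7 or MCD_EmKCs 1 and 2. The markers left out of these sums were chosen after the values were seen. The part of these cells in the results was not tested.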

How the data were processed

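The authors deposited 1 table of normalised read signal, 33919 gene identifiers by 19 libraries. Within each library the deposited values are whole reads divided by 1 size factor (100% whole within 0.001 reads). STAR, DESeq2 and mm10 are named in the submitters' processing notes, and those notes and the labels give no counting tool, strand setting or annotation. Cells were released with collagenase D, sorted, and their RNA was amplified by Smart-seq, per the labels' protocols. Gene positions and exon lengths are from GENCODE on mm10, and promoter sequences from RefSeq (GRCm38.p6), which held 8 of the 10 genes.

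The main test used R 4.3.3 and limma 3.58.1, with log2(value + 1) as input, a variance trend and robust estimates. A gene entered if 6 or more libraries reached a value of 10 (14875 genes), with all 19 libraries in 1 model, two-sided, Benjamini-Hochberg at 0.05. edgeR 4.0.16 and DESeq2 1.42.0 on the recovered reads were alternatives, as were other pseudocounts (0.5 and 5), filters, TMM scaling, 2 groups only, library number sets and single libraries left out. The scripts were tested on simulated data, with 100 genes changed 2-fold and 100 changed 4-fold in each comparison. Of these, 23 to 27% of the 2-fold and 55 to 61% of the 4-fold changes were recovered. A difference that did not pass is therefore not shown to be absent. Total reads ran from 11642240 to 30983487. Reads carry no molecular identifiers, and precision is taken from the spread between libraries. The labels do not say that libraries come from separate animals, so p-values measure the spread between these samples, which may be technical.

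The members, gene lists (215 of 218 entries found) and tests were chosen with earlier results of these data known. Named from each list were up to 3 genes a direction and comparison with the largest change and a mean of at least 50 in the higher group, and the receptors of the ligands. St14 is named although its means in the comparison given were below 50. Hif1a and the markers named in sums were chosen after their values were seen. One gene that this rule names is not reported here.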

Additional observations from a re-analysis of the deposited data

How the results depend on the processing

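Of 1050 values of the 10 genes under 35 alternatives, 991 kept their direction and their side of the threshold, 26 lost the call, 15 gained it and 18 changed sign, all 18 among differences that were not called. MCD_EmKCs 1 and 2, and MCD_MoKCs 2, 5 and 7, were left out as alternatives chosen after seeing the data. The cause of the changes was not tested, except that library number sets and omissions hold fewer samples. The count of the 10 genes called in MCD_EmKCs against Chow_EmKCs, 2, was 1 with a pseudocount of 5, with no filter, with 2 groups only, and without MCD_MoKCs 1 to 3, 4 to 7 or 2, 5 and 7, and was 0 in either library number set (up to 33, or 37 and above). With 1 library left out it was 1 to 2, and the counts of the other comparisons were 3 to 4 and 4 to 5. Over all genes, 607 calls became 179 within numbers up to 33 and 263 from 37 (468 to 620 with 1 library out). The 1568 calls between the MCD groups became 870, 565, 1010 without MCD_MoKCs 1 to 3, and 989 without 2, 5 and 7 (1288 to 1596), and the 2493 of MCD_MoKCs against Chow_EmKCs became 1257 and 1288 (2193 to 2590). In MCD_EmKCs against Chow_EmKCs, Pdgfb turned to -0.59 from 37, -0.34 without MCD_EmKCs 1 and 2, -0.024 without Chow_EmKCs 6 and -0.060 without MCD_EmKCs 2 (up to 0.54 without MCD_EmKCs 4); Vegfb to -0.15 from 37, -0.029 without Chow_EmKCs 4, -0.11 and -0.081 without MCD_EmKCs 2 or 3 (up to 0.26); Pdgfc to -0.038 and Igf1 to -0.30 up to 33, and Igf1 to -0.026 without Chow_EmKCs 5 (up to 0.20). Between the MCD groups, Tgfb1 turned to -0.084 and Igf1 to -0.10 from 37, Pdgfa to -0.24 up to 33, and Igf1 to -0.11 without MCD_MoKCs 1 to 3. Against Chow_EmKCs in MCD_MoKCs, Pdgfc turned to 0.27 from 37, and Igf1 to -0.16 up to 33 and -0.023 without MCD_MoKCs 1 to 3. Pdgfb in MCD_MoKCs against Chow_EmKCs gained the call under 11 alternatives. With the replicate block, 608, 1658 and 2474 genes were called, and 2, 3 and 4 of the 10 genes, with Met in MCD_EmKCs against Chow_EmKCs at an adjusted p of 0.0496 (limma). The deviations of same-numbered libraries from their group means correlated at -0.074 to 0.076. This cannot show which libraries share an animal, since the labels do not say so and such libraries may carry different numbers. TMM scaling shifted the median of all genes by at most 0.014 in size (log2).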
